A study of Mus musculus with 48 samples.

Results

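Perisynaptic astrocytic processes (PAPs) are the thin astrocyte branches that wrap synapses, and the mRNAs attached to their ribosomes were read here in 3 mice. The genes described were selected on their measured counts: 5023 of the 47643 genes listed had 10 or more counts in the PAP library of every animal. They are set against 3211 genes that reached 10 counts in exactly 2 PAP libraries and 3927 that did so in exactly 1; 35482 genes reached it in none. All 12161 genes that reached 10 counts somewhere in PAPs are therefore accounted for, and the genes found in all 3 libraries are called members below.

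The study compared PAPs with full astrocytes (Astro) of the dorsal hippocampus in Tg(Aldh1l1-eGFP/Rpl10a) JD130Htz mice. In this line the promoter of the astrocyte gene Aldh1l1 drives a ribosomal protein L10a fused to green fluorescent protein, so that ribosomes of cells using this promoter carry the tag. PAP and Astro samples came from the same animals C1, C2 and C3, called animals 1, 2 and 3 here, with 8 technical replicates per animal and compartment, 48 samples in all and 24 from PAPs. The labels name no treatment. The animals' age and sex and the way the processes were separated are not given in the sources used here. The 8 PAP technical replicates of 1 animal are summed and called 1 library here.

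Translating ribosome affinity purification pulls tagged ribosomes out of a lysate with an antibody to the fluorescent protein, and the mRNAs that come with them are read as the translated RNA of the tagged cells. Ribosomes and mRNAs reach the distal processes of astrocytes, where proteins can be made near the synapse. Transcripts of ribosomal proteins and elongation factors belong to the TOP class, whose 5′ end carries a run of pyrimidines and whose translation follows nutrient and growth signals.

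Each PAP library, as the sum of its 8 technical replicates, held 1829962, 1833201 and 2980984 counts in animals 1, 2 and 3. Values are counts scaled by the library total to the CPM unit, and 10 counts correspond to 5.46, 5.45 and 3.35 CPM. A count of 0 allows up to 1.64, 1.64 and 1.01 CPM (3 counts), for counting error only. The Astro libraries were deeper, at 18707844 to 20293538 counts. The 8 technical replicates of an animal differed by little more than sampling noise, with a variance 1.09 to 1.13 times the Poisson value, against 97.4 times between the 3 animals, and were counted as 1 sample. With 3 animals and no contrast to test within PAPs, the results are descriptions and carry no p-value.

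Genes found in all 3 PAP libraries made up 10.5% of all genes listed and 41.3% of the genes that reached 10 counts in at least 1. They were few in number but held most of the reads, with 83.9%, 84.8% and 83.6% of the PAP counts of animals 1, 2 and 3 (84.1% ± 0.629, SD, n = 3; the widest 95% Wilson interval reached 0.0532 percentage points to each side, for counting error only). Genes of exactly 2 libraries held 10.9% ± 0.625 and genes of exactly 1 held 4.73% ± 0.111 (SD, n = 3). In the Astro libraries the same members took 76.0% ± 1.42 (SD, n = 3).

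When every library was scaled to the smallest PAP total, 4839 genes reached 10 counts in all 3 PAP libraries, 3180 in exactly 2 and 3887 in exactly 1, so that 40.6% of the genes found were found in all 3. The Astro libraries of the same animals, scaled to the same total, shared 10180 genes, with 969 in exactly 2 and 884 in exactly 1, or 84.6% in all 3. Scaling matches the totals but leaves the deeper Astro libraries with less sampling noise, so single Astro technical replicates, of 2134697 to 2770446 counts as deposited, were also compared; this was added after the data were seen. Over the 8 technical replicates, 10538 to 11007 genes reached 10 counts in all 3 animals, 82.2% to 83.1% of those found. The share found in all 3 was thus lower among the PAP libraries than among Astro samples of similar depth, without a test. Of the 14535 genes with 10 or more counts in every Astro library as deposited, 33.7% were members.

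**Figure D1:**
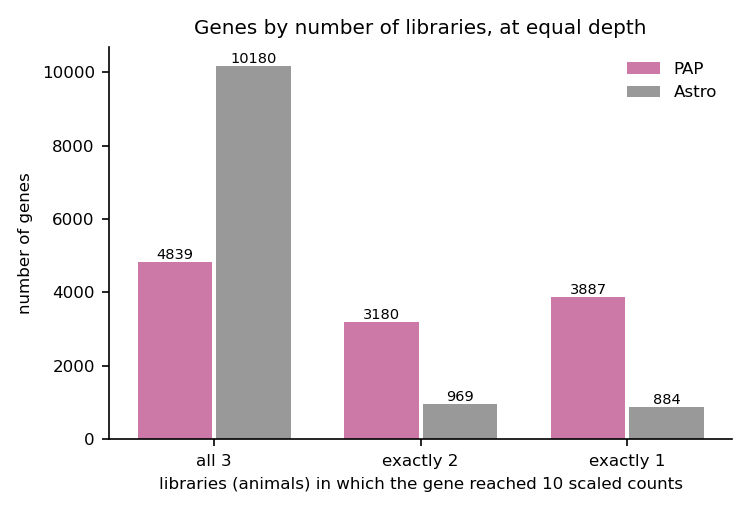
Number of genes (y axis) that reached 10 counts in all 3, exactly 2 or exactly 1 library (x axis), with each library scaled to the smallest PAP total; purple bars are PAP, grey bars Astro. The PAP libraries shared 4839 genes and the Astro libraries 10180, while genes of exactly 1 library numbered 3887 in PAP and 884 in Astro.

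The iron-storage and translation genes stood at the head of the members. Genes were ordered by the lowest of their 3 CPM values, which weights every animal alike; this ranks the reads a gene takes, and long genes take more reads per molecule. Ftl1, the ferritin light chain that stores iron with Fth1, ranked first with 10827, 9110 and 8387 CPM in animals 1, 2 and 3 (9441 ± 1253, SD, n = 3). Eef1a1, the elongation factor that brings aminoacyl-tRNA to the ribosome, followed with 11499, 8904 and 6067 CPM. Ccnd2, cyclin D2, ranked 3rd at 9754, 6945 and 5915 CPM. All of these were highest in animal 1 and lowest in animal 3. On GRCm38 the genes span chr7:45457944-45459884 (Ftl1), chr9:78478449-78489151 (Eef1a1) and chr6:127125162-127152193 (Ccnd2).

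Among the other genes named for this translatome, Rplp1, an acidic protein of the large subunit stalk, had 3518, 3331 and 2240 CPM and ranked 10th by CPM. Rack1, a scaffold protein seated on the small ribosomal subunit, had 2814, 2476 and 1744 CPM. Ezr encodes ezrin, which ties the cell membrane to actin and is known from fine astrocyte processes. It had 907, 789 and 923 CPM (873 ± 73.4, SD, n = 3), ranked 81 of 5023, and differed least between animals of these 6 genes, by a factor of 1.17. The Astro libraries held 245 ± 40.9 CPM of Ftl1, 139 ± 35 of Ccnd2 and 289 ± 86.3 of Ezr (SD, n = 3), given side by side and without a test.

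Start sites of 5 members are shown because the TOP class is defined at the first bases of the mRNA. They are the 3 among the first 30 members that held CTTTT or CTTTC, and 2 that held neither, Ftl1 and Ezr. Each line gives 30 bases, 15 on either side of the start annotated by RefSeq on GRCm38.p6, 5′ to 3′ on the gene's strand; capitals mark CTTTT or CTTTC, the pyrimidine runs searched.
Rack1 (chr11:48800345-48800374, plus strand): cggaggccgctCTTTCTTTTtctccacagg
Rpl4 (chr9:64173372-64173401, plus strand): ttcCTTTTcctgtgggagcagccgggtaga
Rpl13a (chr7:45128731-45128760, minus strand): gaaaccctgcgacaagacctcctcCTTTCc
Ftl1 (chr7:45459872-45459901, minus strand): ggggcacccctccctccggagggtcaacat
Ezr (chr17:6782766-6782795, minus strand): gcccggccggttcttatactcgggactgcg
Rack1 carries both runs across its start, overlapping in 1 base. Rpl4 carries 1 upstream of the RefSeq start and Rpl13a 1 downstream of it, so neither lies at the first bases of the mRNA annotated by RefSeq. For Rpl4 the annotations differ: GENCODE M21 places the start of the gene at chr9:64173375, which falls at this run. Ftl1 and Ezr show neither in these letters, but Ftl1 has another unbroken stretch of pyrimidines (c and t) across its annotated start.

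Within 30 bases on either side of the start, CTTTT or CTTTC lay on the gene's strand in 27 of the 61 ribosomal protein genes matched by symbol (44.3%), against 15.5% of all 27025 genes in the RefSeq table. On the opposite strand the shares were 16.4% and 15.7%. Among the first 30 members 21 were matched and only 3 of these held the run (14.3%, against 28.6% on the opposite strand). Eef1a1, Eef2 and ribosomal protein genes such as Rps2, Rps3 and Rplp0 were among those without it. Members as a whole held the run in 511 of 3785 matched genes (13.5%), genes of exactly 2 libraries in 12.9% and genes of exactly 1 in 14.2%, so the members' share was near that of all genes. On the opposite strand these classes had 11.3%, 12.8% and 13.5%. The first 100 members held it in 14 of 63 matched genes (22.2%) and the elongation factor and TOP list in 3 of 11 (27.3%). On the opposite strand these sets had 19.0% and 18.2%. A match describes these letters and not a working element. The search reads only these strings, so other pyrimidine stretches count as no match, such as those across the starts of Ftl1 and Rpl14. A gene without a match can therefore still carry pyrimidines at its start.

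Of the 30 members with the highest lowest value, 15 encode ribosomal proteins and 5 are elongation factors or other TOP mRNAs (Eef1a1, Eef2, Pabpc1, Rack1 and Npm1). They took 12.6%, 10.7% and 9.06% of the PAP counts of animals 1, 2 and 3. Rpl4, a protein of the large subunit, had 8135, 5283 and 4475 CPM, and Eef2, which moves the ribosome along the mRNA, 4935, 3455 and 2760 CPM. In 25 of the 30 the highest value was in animal 1, and in 27 the lowest was in animal 3, beside 34.4% and 37.7% of all members. The highest value was at most 2 times the lowest in 25 of 30, beside 28.5% of all members, with a range of 1.24 (Rpl14) to 3.79 (Mt1). The ranking uses the lowest value, which is also part of this ratio.

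Cpe, carboxypeptidase E, which trims peptide hormones, and Mt1, a metallothionein, ran the other way. Cpe had 3486, 6550 and 10461 CPM and Mt1 1666, 5080 and 6320 CPM, lowest in animal 1 and highest in animal 3. Mdm2, the ubiquitin ligase of p53, had 5862, 2709 and 2349 CPM, and Mafg, a small Maf transcription factor, 3730, 2401 and 2138 CPM. Gm22133, annotated as a miRNA, ranked 7th, but it lies inside Ftl1 on the same strand and its reads cannot be told apart from those of ferritin. Eef1a1 likewise holds Gm26377, annotated as a miRNA, on the same strand, with 3136, 2932 and 2327 counts in animals 1, 2 and 3. Ccnd2 shares its locus with the antisense gene Gm43126. Per kilobase of exon, 15 of the 30 stayed among the highest 30, so the order of single genes depends on the scale.

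**Figure D2:**
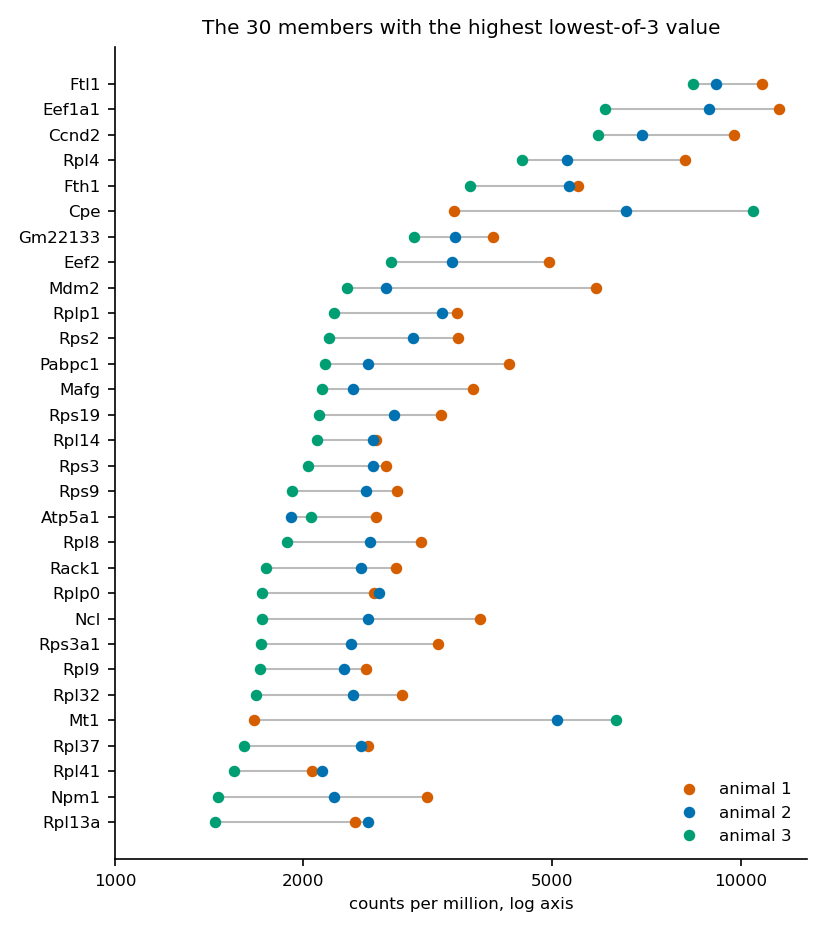
CPM on a log axis (x) of the 30 members with the highest lowest-of-3 value (y), 1 point per animal; the grey line joins the lowest and highest animal. Points of animal 1 (orange) lie to the right in 25 genes, while Cpe and Mt1 are highest in animal 3 (green).

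The proteins of the cytosolic ribosome were found throughout. All 82 ribosomal protein genes listed, 33 of the small and 49 of the large subunit, reached 10 counts in every PAP library, against 41.3% of all genes found in PAPs. The values ran from Rpl29, with 48.6, 95.5 and 63.1 CPM, to Rpl4. Their summed share was 4.62%, 4.11% and 2.91% of PAP counts for the small subunit and 6.44%, 5.67% and 4.11% for the large subunit. In 61 of the 82 the value was highest in animal 1, and in 76 it was lowest in animal 3. The median ratio of animal 1 to animal 3 was 1.54, beside 1.07 over all members.

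The highest value was within 2 times the lowest in 76 of the 82, beside 28.5% of all members. Their median was 803 CPM against 81.0 CPM over all members, and the spread between animals was smaller for genes above 300 CPM (below); the part of the level in that count was not tested. All 17 elongation factors and other TOP mRNAs were members, 16 of them highest in animal 1, with a median ratio to animal 3 of 1.79. Among all members 34.4% were highest in animal 1.

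Of 25 initiation factors 24 were members (96.0%, beside 41.3% of all genes found in PAPs), the exception being Eif2s1, a subunit of the factor that delivers the first tRNA, with 131, 85.1 and 0.335 CPM. Eif4g2, a scaffold of initiation, was highest in animal 3 at 1914 CPM, against 889.6 and 1152 CPM in animals 1 and 2. Eif3a, the largest part of a factor that holds the small subunit ready, ran from 1283 CPM in animal 1 to 462 CPM in animal 3. Of the 24, 10 were highest in animal 1, 9 in animal 2 and 5 in animal 3, beside 34.4%, 33.2% and 32.4% of all members, while 14 were lowest in animal 3 (37.7% of all members were). Their median ratio of animal 1 to animal 3 was 1.42, beside 1.07 over all members.

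The nuclear-encoded part of the respiratory chain was found throughout. Of 71 nuclear-encoded subunits of the respiratory chain and ATP synthase on the list, 70 were among the genes counted. All 70 were members, beside 41.3% of all genes found in PAPs, with a median of 269 CPM. Atp5h, a stalk subunit of ATP synthase, had 524, 519 and 529 CPM, the smallest ratio (1.02) among the 2092 members with a mean of at least 100 CPM. Cox8a, a subunit of cytochrome oxidase, had 482, 1290 and 1378 CPM and was low in animal 1. Of the 70, 14 were highest in animal 1, 25 in animal 2 and 31 in animal 3, beside 34.4%, 33.2% and 32.4% of all members. Glycolysis and lactate export had 16 of 18 genes among the members (94.1% of the 17 found, beside the same 41.3%), among them Pkm, pyruvate kinase, at 962, 842 and 716 CPM. The lactate transporter Slc16a1 reached 10 counts in animal 1 alone, at 158 CPM.

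Machinery that folds, cuts or splices was found nearly whole. Members were 29 of 31 proteasome genes, 30 of 35 splicing factors and hnRNPs and 22 of 26 chaperones. Of the list genes found in at least 1 library these were 93.5%, 85.7% and 91.7%, beside 41.3% of all genes found. The cytosolic chaperonin, a double ring that folds actin and tubulin, had all 8 subunits among the members, with Tcp1 at 1137, 1208 and 1029 CPM. Hsp90ab1, a constitutive heat shock protein, had 1846, 1782 and 1334 CPM. The stress-induced Hspa1a had 0 counts in every PAP library and Hspa1b at most 1.01 CPM. Psma1, a subunit of the proteasome core, had 243 and 235 CPM in animals 1 and 3 but 1.09 CPM in animal 2.

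Actin and its turnover contributed 16 of 18 genes (88.9% of those found) and tubulins 8 of 11 (80%), beside the same 41.3%. Arpc1b, a subunit of the complex that branches actin filaments, had 556, 444 and 479 CPM, and Tmsb4x, which binds free actin, 384, 869.5 and 718 CPM. Of the 7 ezrin-family and linker genes, 6 were members; Rdx, radixin, had 1001, 637 and 429 CPM. Pdpn, a membrane protein that binds ezrin, was at 0 in animal 1 and at 30 and 10.1 CPM in animals 2 and 3. The neuronal tubulin Tubb3 had 1.09 CPM in animal 1 and 0 in the others.

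**Figure D3:**
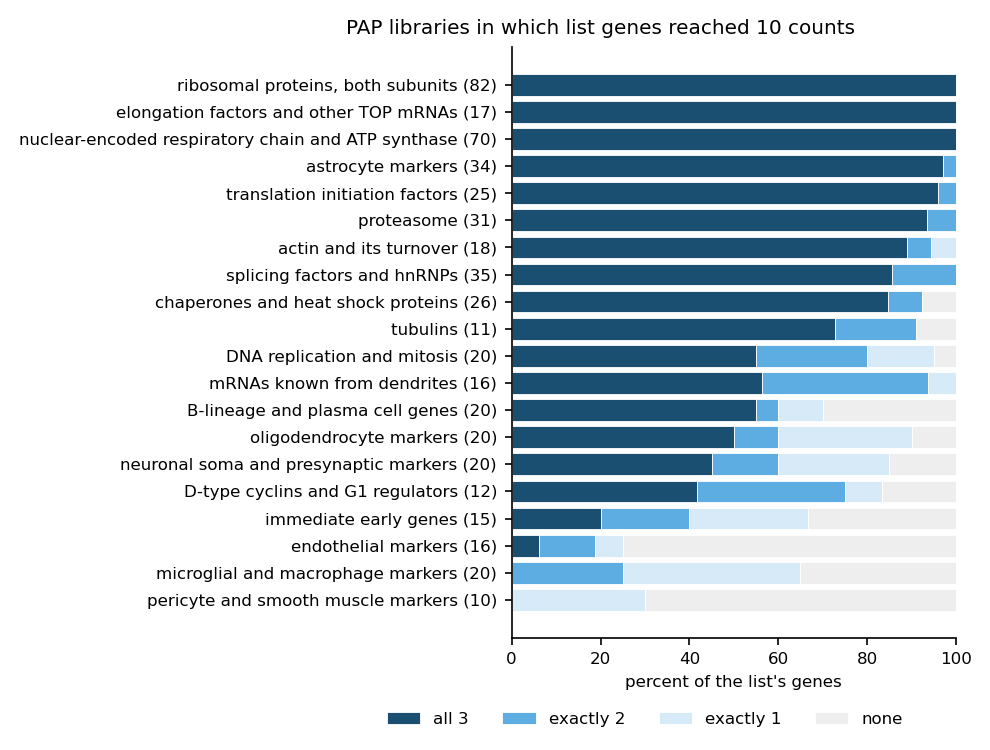
Percent of each list's genes (x axis; list sizes in brackets) that reached 10 counts in all 3, exactly 2, exactly 1 or none of the PAP libraries. Ribosomal protein, elongation factor and respiratory chain lists are dark along their whole length, while 0 of 20 microglial and 0 of 10 pericyte genes were found in all 3.

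The list of D-type cyclins and G1 regulators had 5 of 12 genes among the members, Ccnd2 included. Of the 10 found in at least 1 PAP library these were 50%, beside 41.3% of all genes found there. Without animal 3, 9 of the 12 reached 10 counts in both remaining libraries. Ccnd1, cyclin D1, had 20.2, 37.6 and 2.68 CPM, and Ccnd3, cyclin D3, 57.4, 92.2 and 152 CPM. Cdk4, the kinase these cyclins switch on, had 370.5, 360 and 463 CPM, while its relative Cdk6 reached 10 counts in no library. Of 20 genes of DNA replication and mitosis, 11 were members (57.9% of the 19 found), 8 of them highest in animal 1, beside 34.4% of all members. Rrm2, a subunit of ribonucleotide reductase, had 369, 85.6 and 117 CPM, Top2a 108, 54.0 and 67.8 CPM and Cdc25c, a phosphatase of mitotic entry, 50.8, 96.6 and 70.8 CPM. In Astro, Top2a had 0.433 CPM and Cdc25c 0.133 CPM on average. Mki67, a marker of cycling cells, reached 10 counts in animal 1 alone (35 CPM).

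Of the 34 astrocyte markers, 33 were members, beside 41.3% of all genes found in PAPs. The exception was Fgfr3, a growth factor receptor, at 0, 160.4 and 22.8 CPM. Gfap, the astrocyte intermediate filament, had 985, 3015 and 4470 CPM, Apoe, the lipid carrier, 1167, 2291 and 4524 CPM, and Slc1a2, the glutamate transporter, 467, 697 and 1234 CPM. Of the 33 members, 29 were highest in animal 3 and 27 lowest in animal 1, against 32.4% of all members highest in animal 3. The 34 markers summed to 1.76%, 3.89% and 6.26% of PAP counts in animals 1, 2 and 3. In the Astro libraries of these animals they summed to 11.1%, 11.4% and 8.28%, given without a test. In PAPs the members' median ratio of animal 1 to animal 3 was 0.322. The astrocyte genes and the ribosomal protein genes therefore had opposite orders across the 3 animals, and in bulk RNA fewer tagged processes and less mRNA per process cannot be told apart.

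Genes of the B lineage, the cells that make antibodies, were also mostly highest in animal 1. Of 20 such genes, 11 were members, or 78.6% of the 14 found in at least 1 PAP library, beside 41.3% of all genes found. Of the 11, 9 were highest in animal 1, beside 34.4% of all members. Igkc, the antibody kappa constant chain, had 2803, 1842 and 1270 CPM, Jchain, which joins secreted antibodies, 2693, 1272 and 1115 CPM, and Pou2af1, a B-cell transcription coactivator, 1193, 996 and 410.3 CPM. The list summed to 1.00%, 0.677% and 0.417% of PAP counts and to 0.0143% to 0.0171% in the Astro libraries. The B-cell genes Cd79a and Ighm were at 0 counts in every PAP library, as were 6 of the 20 in all, and 0 of 10 T-lineage genes were members (1 without animal 2). The part of these transcripts, and of the astrocyte-marker level, in the order of the ribosomal protein values, and in that of the first 30 members, was not tested.

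**Figure D4:**
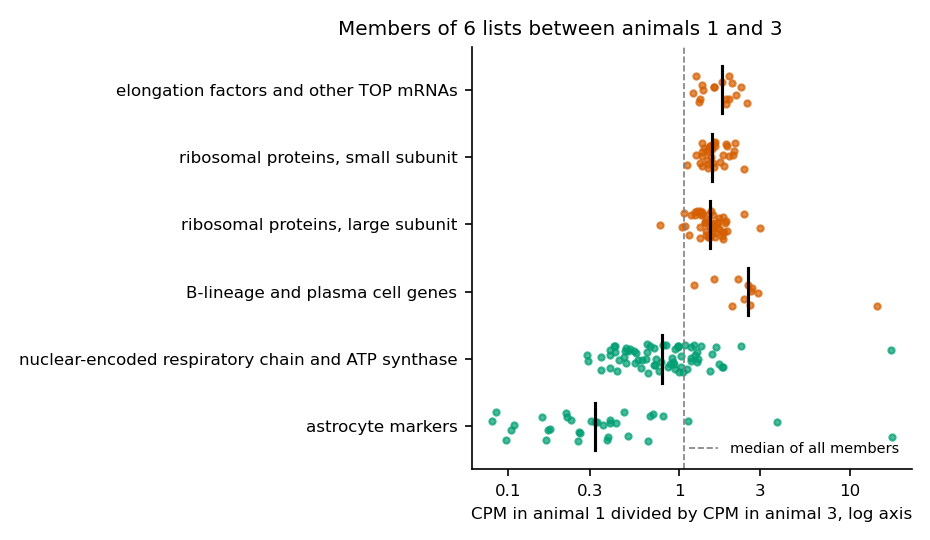
Ratio of CPM in animal 1 to CPM in animal 3 on a log axis (x) for members of 6 lists (y), 1 point per gene; black bars are medians and the dashed line the median of all members (1.07). Ribosomal protein, elongation factor and B-lineage genes lie mostly to the right of the line, and astrocyte markers to the left, with a median of 0.322.

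Markers of other brain cells were found in part; among all genes found in at least 1 PAP library 41.3% were members, and the number of each list's genes found is given in brackets. Neuronal genes contributed 9 of 20 (52.9% of 17 found), led by Snhg11 (1158, 1336 and 569.9 CPM) and Meg3; Prox1 was at 0 in all 3 libraries and Rbfox3 was found in animal 2 alone. The neuronal list summed to 0.171% to 0.343% of PAP counts. Genes whose mRNAs are known from dendrites contributed 9 of 16 (56.2% of 16 found), among them Camk2a, a synaptic kinase, at 113, 415 and 222 CPM. Oligodendrocyte genes contributed 10 of 20 (55.6% of 18 found), with a median ratio of highest to lowest of 5.83 (0.0880% to 0.256% of PAP counts). Microglial genes contributed 0 of 20 (0.0149% to 0.0276% of PAP counts; 13 found in at least 1 library; 1 or 2 with any 1 animal left out), with Cx3cr1, P2ry12 and Tmem119 at 0 in all 3 libraries. Pericyte genes contributed 0 of 10 (0.000546% to 0.00292% of PAP counts; 3 found) and endothelial genes 1 of 16 (0.0272% to 0.0404% of PAP counts; 4 found; 2 without animal 1 or without animal 2). That gene was Bsg, which astrocytes also use, and Cldn5 and Cdh5 were at 0. Ependymal and choroid plexus genes contributed 4 of 10 (57.1% of 7 found; 0.0798% to 0.820% of PAP counts), with Ttr, made by the choroid plexus next to the hippocampus, at 685, 6447 and 6713 CPM.

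Whether a gene found in 2 animals was found again in the third was read with each library left out in turn. Of 5837 genes at 10 counts in animals 2 and 3, 86.1% reached it in animal 1; of 6382 in animals 1 and 3, 78.7% reached it in animal 2; and of 6061 in animals 1 and 2, 82.9% reached it in animal 3. The share followed the level in the other 2 libraries. It was 51.9% to 61.9% for genes with a mean under 10 CPM, 75.5% to 84.1% at 30 to 100 CPM, 99.1% to 99.8% at 300 to 1000 CPM and 100% over 1000 CPM in each of the 3 animals. Most genes that were missed were not near the minimum: of 814, 1359 and 1038 missed in animals 1, 2 and 3, 615, 1102 and 866 had 3 counts or fewer.

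**Figure D5:**
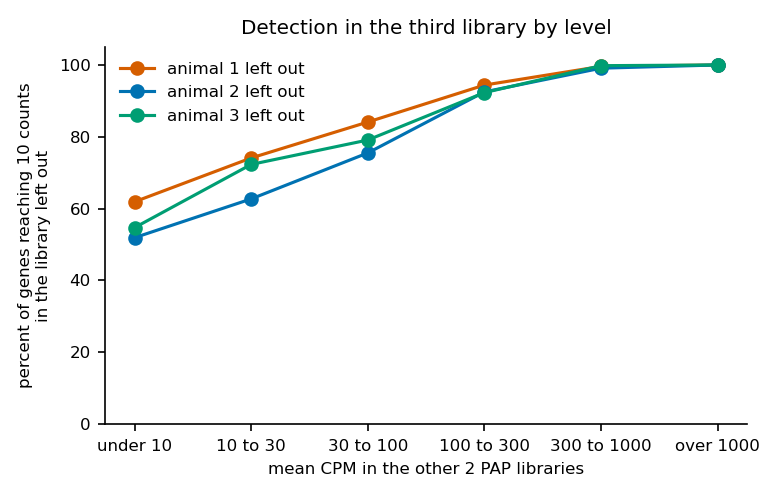
Percent of genes that reached 10 counts in the library left out (y axis) by their mean CPM in the other 2 PAP libraries (x axis, 6 ranges), with 1 line per animal left out. All 3 lines run from 51.9% to 61.9% in the lowest range to 100% in the highest, and animal 2 (blue) lies lowest up to 100 CPM.

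The spread of members between animals differed by level. The median ratio of the highest to the lowest animal was 2.91 over all members (quartiles 1.89 and 5.11). It was 2.00 at a mean under 10 CPM, 2.91 at 10 to 30, 3.54 at 30 to 100, 2.71 at 100 to 300, 1.88 at 300 to 1000 and 1.80 over 1000 CPM. In the lowest ranges the minimum of 10 counts itself limits the ratio. It exceeded 10 in 491 members. Beside Atp5h, the members with the smallest ratios at 100 CPM or more were Gm43738, Nedd8, Atp5k, Atp5f1, Ubfd1, Arhgdia, Tma7, Yaf2 and Mdh1, with ratios up to 1.07. Nedd8, a ubiquitin-like modifier, had 327, 319 and 312 CPM, and Mdh1, the cytosolic malate dehydrogenase, 479, 497 and 466 CPM.

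At the other end, Abat, the enzyme that breaks down GABA, had 143, 6.00 and 934 CPM, and Nek2, a mitotic kinase, 372, 226 and 3.35 CPM. Rab31, a vesicle GTPase, had 13.1, 148 and 629 CPM, and Fgf1, a growth factor, 206, 10.4 and 698 CPM. Members with large ratios also included 2900052N01Rik, Hbs1l, Sirpa, Cadm2 and Gpbp1. In Astro, Abat had 559 ± 77.2 CPM and Rab31 669.9 ± 97.3 CPM (SD, n = 3). Nek2 had 4.39, 1.28 and 2.15 CPM in the Astro libraries of animals 1, 2 and 3. These genes were chosen by their PAP ratios, and the Astro libraries are deeper.

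The rule's minimum fell among such genes. The lowest count was exactly 10 in 88 members and exactly 9 in 83 genes left out, with median means of 28.5 and 29 CPM. Just inside lay Nek2, Sirpa and Cacnb4, and just outside Dlg1, a synaptic scaffold, at 84.2, 398 and 3.02 CPM, Scamp1 at 92.9, 4.91 and 238 CPM and Prkag2 at 89.6, 4.91 and 173 CPM. Genes on either side of the minimum thus had alike values.

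Some genes found in a single animal were well read there. In 790 of the 3927 genes of exactly 1 library (20.1%), that library held 100 or more counts while both others held 3 or fewer, 154 of them in animal 1, 236 in animal 2 and 400 in animal 3. Of the 790, 713 (90.3%) had 10 or more counts in every Astro library, against 80.1% of all genes of exactly 1 PAP library. Spred1, an inhibitor of Ras signalling, had 414 CPM in animal 3 and 0 in the others, beside 522 ± 63.1 CPM in Astro (SD, n = 3). Golph3l, a Golgi protein, had 256 CPM in animal 2 alone, and Gsr, glutathione reductase, 185 CPM in animal 1 and at most 0.545 CPM elsewhere.

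The other genes read most in animal 1 alone were Wdr12, Fam102b, Cytip and Npat, in animal 2 Kcna2, Cttnbp2, Nrep and Ap3b2, and in animal 3 4930402H24Rik, Galnt16, Dnajc13 and Hsdl2. Among genes missing from 1 animal, Prex1, which activates Rac, had 274 and 288 CPM in animals 2 and 3 and 0 in animal 1. Zhx1, a transcription factor, was at 0 in animal 2 and at 287 and 631 CPM in animals 1 and 3. Matk, a kinase, was at 0 in animal 3 and at 332 and 327 CPM in animals 1 and 2. Csdc2 and Trp53inp2 were likewise missing in animal 1, Rfc4 and Psma1 in animal 2 and Rtcb and Atp11b in animal 3.

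The Astro level, which the rule did not use, stepped down from class to class. Median Astro CPM was 63.2 for members, 22.9 for genes of exactly 2 PAP libraries, 8.63 for genes of exactly 1 and 0 for those of none. Of the members 97.5% had 10 or more counts in every Astro library, against 93.6%, 80.1% and 9.84% of the other classes. Exonic length was alike, with medians of 3983, 4445 and 3972 bases in the first 3 classes, as was GC content at 49.7%, 50.2% and 49.6%. Protein-coding genes made up 92.0%, 89.2% and 78.5%.

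Genes read most in full astrocytes were nearly all members. Of the 50 with the highest lowest-of-3 Astro CPM, 50 were found in all 3 PAP libraries, of the highest 500, 474 (94.8%) and of the highest 5000, 3272 (65.4%). Spred1, Prex1 and Csdc2 were among the 26 of 500 that were not. Within the members, the median Astro level was 149.7 CPM for the first 30 by PAP rank, 175 CPM for ranks 31 to 100 and 40.7 CPM for ranks beyond 2000, while the PAP medians were 2717, 1326 and 50.1 CPM. The PAP medians follow from the ranking itself, and the Astro medians differed little between the first 30 and those at ranks 31 to 100.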

How the data were processed

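RNA bound to tagged ribosomes was taken from the dorsal hippocampus with an anti-GFP antibody after the lysates had passed columns without antibody and with nonspecific mouse IgG, amplified as cDNA with SMART-Seq and made into Nextera XT libraries, per the labels' protocols. The authors deposited whole-number read counts per Ensembl gene for each of the 48 samples, not normalized. The submitters' processing notes name bcl2fastq 2.18.0.12, Trim Galore 0.4.1, STAR 2.5.2b, SAMtools, HTSeq 0.5.3 and mm10; the strand setting of the counting is not given in the sources used here, so reads of a gene and its antisense or nested partner cannot be told apart.

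Counts of the 8 technical replicates were summed per animal and compartment and divided by the library total (CPM) with Python 3.11.15 and pandas 2.3.3. Symbols, biotypes and lengths came from GENCODE M21 (GRCm38), which held 99.1% of the gene IDs. The code for class assignment was checked on simulated counts far from the minimum, which says nothing about genes near it. No test between groups was planned or run, since PAPs were described alone. TMM factors for the alternative scaling came from edgeR 4.0.16 in R 4.3.3.

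Named genes were the 30 members with the highest lowest-of-3 CPM, 6 marker genes, the 5 genes highest in each single library and the 3 highest in each pair, the 10 smallest and 10 largest ratios among members with a mean of 100 CPM or more, the 3 genes on either side of the minimum and members of 36 gene lists. The members and lists were chosen with earlier results of these data known. Genes named as examples from lists, or from the members low in Astro, were chosen after their values were seen. Alternatives changed the count minimum, scaling, technical replicates, animals and biotypes. Some genes that these rules name are not reported here.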

Additional observations from a re-analysis of the deposited data

How the results depend on the processing

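Raising or lowering the minimum moved the number of genes found in all 3 PAP libraries from 5023 to 5597 (5 counts), 4365 (20 counts) and 3149 (50 counts, beyond 1.5 times). Their share of PAP counts was 85.9%, 81.7% and 75.5% at these minimums and 80.0% with protein-coding genes only, each further from 84.1% than 1 SD. Leaving out 1 animal gave 5837 to 6382 genes, with 88.4% to 90.3% of counts; fewer libraries had to reach the minimum. The share of genes found again in the third library was 82.5% ± 3.69 on average and 79.0% to 83.2% under the settings tried, and could not be computed with 1 animal left out. Of 360 list counts under other settings, 341 were within 1.5 times, and all 24 alternative mean CPM values of the 6 marker genes lay within 1 SD. No paired analysis was possible because the results come from no test. PAP and Astro samples do pair by animal, but by plan they were not tested against each other. Depth limits genes under about 5.46 CPM in animals 1 and 2, and whether technical replicates are the same library sequenced again is not given in the sources used here.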

Other observations

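Of the 5023 members, 49 had fewer than 10 counts in every Astro library and 12 had 3 or fewer. Among these 12, Platr27, a long noncoding RNA, had 36.1, 24.5 and 20.8 CPM in animals 1, 2 and 3, and Iqcf5, a protein-coding gene, 18.0, 20.2 and 8.72 CPM. Of 10 nuclear-retained long noncoding RNAs, 6 were members (60% of those found, beside 41.3% of all genes found in PAPs); Malat1 had 5009, 4110 and 1302 CPM, lowest in animal 3, beside 208 CPM in Astro. Of 15 mitochondrially encoded genes, 9 were members (90% of the 10 found) and mt-Co2, mt-Co3, mt-Atp6 and mt-Atp8 were at 0 counts in every PAP library. In the deeper Astro libraries too, only 9 of the 15 reached 10 counts in every animal. Mt-Cytb had 179, 579 and 539 CPM, lowest in animal 1.

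Immediate early genes, which respond to neuronal activity and to dissection, contributed 3 of 15 (30% of the 10 found in at least 1 PAP library, beside 41.3% of all genes found), and 5 of 15 without animal 3. Btg2, an antiproliferative gene of the p53 response, had 2916, 1162 and 1482 CPM, and Jund 175, 162 and 167 CPM, while Egr1 was found in animal 2 alone at 73.6 CPM and Fos was at 0, 16.4 and 43.3 CPM. Lysosomal genes contributed 14 of 18 (77.8% of those found) and antioxidant genes 15 of 17 (88.2%); Gstm1, a glutathione transferase of astrocytes, had 455, 1064 and 1491 CPM, lowest in animal 1 and highest in animal 3. Immunoglobulin genes by biotype contributed 15 of 429 (48.4% of the 31 found, beside 41.3% of all genes found in PAPs), and 13 of the 15 were highest in animal 1, beside 34.4% of all members.

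The remaining lists were given the same reading. Over all lists together, 80.6% of the list genes found in PAPs were members. Members were 6 of 13 genes of iron storage and transport (54.5% of those found), 7 of 12 of MHC class I and antigen presentation (63.6%), 9 of 12 snoRNA host genes (81.8%), 9 of 12 histone genes (90%) and 7 of 8 ubiquitin genes (87.5%), beside 41.3% of all genes found in PAPs. Tfrc, the transferrin receptor that brings iron into cells, reached 10 counts in animal 2 alone at 21.3 CPM, and Hmox1, which frees iron from heme, was at 0 in every PAP library. Of 9 red blood cell genes only Bpgm was a member, while 4 reached 10 counts in both other libraries without animal 3 and 2 were found in all 3 at a minimum of 5 counts. Of 8 fibroblast and meningeal genes only Ptgds was one (2 without animal 2), at 27.3, 436 and 947 CPM.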
